A study of Homo sapiens with 27 samples.

Results

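The genes described here code for the subunits of RNA polymerases I, II and III, and their mRNA was measured by RNA-seq in U937 cells, a human myeloid leukaemia cell line. The members were all protein-coding genes whose GENCODE symbol starts with POLR1, POLR2 or POLR3 followed by a subunit letter, with a mean level above 1 FPKM (fragments per kilobase of transcript, scaled to library size) over the 9 libraries. Of the 57905 genes of the deposited table, 33 carried such a symbol and 32 passed the level: 8 POLR1 genes, 14 POLR2 genes and 10 POLR3 genes. The gene just below the limit was POLR2J2, at a mean of 0.09 FPKM, and the one just above it was POLR2J3, at 1.65 FPKM. Gene positions given below are those of GENCODE 44 on GRCh38.

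RNA polymerase I (Pol I) transcribes the precursor of the large ribosomal RNAs in the nucleolus, RNA polymerase II (Pol II) makes mRNAs, and RNA polymerase III (Pol III) makes transfer RNAs and other short RNAs. Each enzyme is built around a catalytic core of a largest and a second largest subunit, and the cores are related to one another. Several small subunits are used by all of them, and the product of POLR1C and that of POLR1D are used by both Pol I and Pol III. Proliferating cells, leukaemia cells among them, make ribosomes at a high rate and depend on Pol I and Pol III for it. The transcription factor c-Myc is known to raise the output of all these enzymes.

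Cells were left as control or were given matrine, at a dose of 0.8 mg/ml, and collected after 30 min or after 24 h. Matrine is an alkaloid of the herb Sophora flavescens, and water was its vehicle. There were 3 libraries per group, all of the same U937 line, and the labels name no other agent or genotype. Both times were set against the same control libraries, and their time in culture is not given in the sources used here, so time in culture and 24 h of treatment cannot be told apart. Total counts per library lay between 17314931 and 21930018. The study's methods speak in general of independent replicates, but the labels do not say whether the libraries of a group came from separate cultures, and the p-values measure only the spread between these libraries, which may be technical. Within each group the libraries differed beyond sampling noise, with a chi-square per degree of freedom between 2.21 and 14.42. Control replicate 2 differed most from the other controls, at 8.55 and 8.76, against 2.53 between those. Likewise 30 min replicate 3 differed most within its group, at 10.15 and 14.42, against 6.11 between the others. Among 12 myeloid marker genes, 8 had a median above 1 FPKM, led by ELANE at 935 FPKM, but CD68, MPO, CSF1R and CD14 had medians below 1 FPKM. Of 19 markers of other cell types, 16 stayed below 1 FPKM in all libraries, and among the others the medians were 3.05 FPKM for KLF1 and 1.53 FPKM for PAX5.

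After 24 h of matrine, mRNA levels of many polymerase subunits were lower than in the control, and the 6 genes whose products belong to Pol I alone were all called lower. Of these 6, 4 were called lower with a mean FPKM above 5, with library totals alone or with limma. A gene was called when the adjusted p was below 0.05 (quasi-likelihood test of edgeR, adjusted by Benjamini-Hochberg over all 12035 genes tested) and the fold change was at least 1.5, which is 0.585 on the log2 scale. By this rule 14 of the 32 subunit genes were called lower and 0 were called higher, against 11.2% of all tested genes called lower and 15.1% called higher. By symbol, 6 of 8 POLR1, 4 of 14 POLR2 and 4 of 10 POLR3 genes were lower. The median log2 fold change was -0.54 over the members, compared with 0.01 over all genes tested. It was -0.73 for POLR1, -0.22 for POLR2 and -0.52 for POLR3 genes. On the adjusted p alone, 23 members were lower and 4 were higher, against 31.8% and 31.5% of all genes. Every 24 h library lay below every control library for 23 members, an order that 31% of all genes showed, and every 24 h library lay above for 6, against 38.7%. FPKM values and counts are shares of a library, so a change in the total mRNA of a cell would not be seen in them. Fewer cells with an mRNA cannot be told apart from less of it per cell. Subunit proteins were not measured in these libraries. The number of members called lower moved with the fold change asked for: 22 were lower at 1.2 or more and 4 at 2 or more. The shares of all genes at these other thresholds are not given here, so these counts are not read against them.

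**Figure D1:**
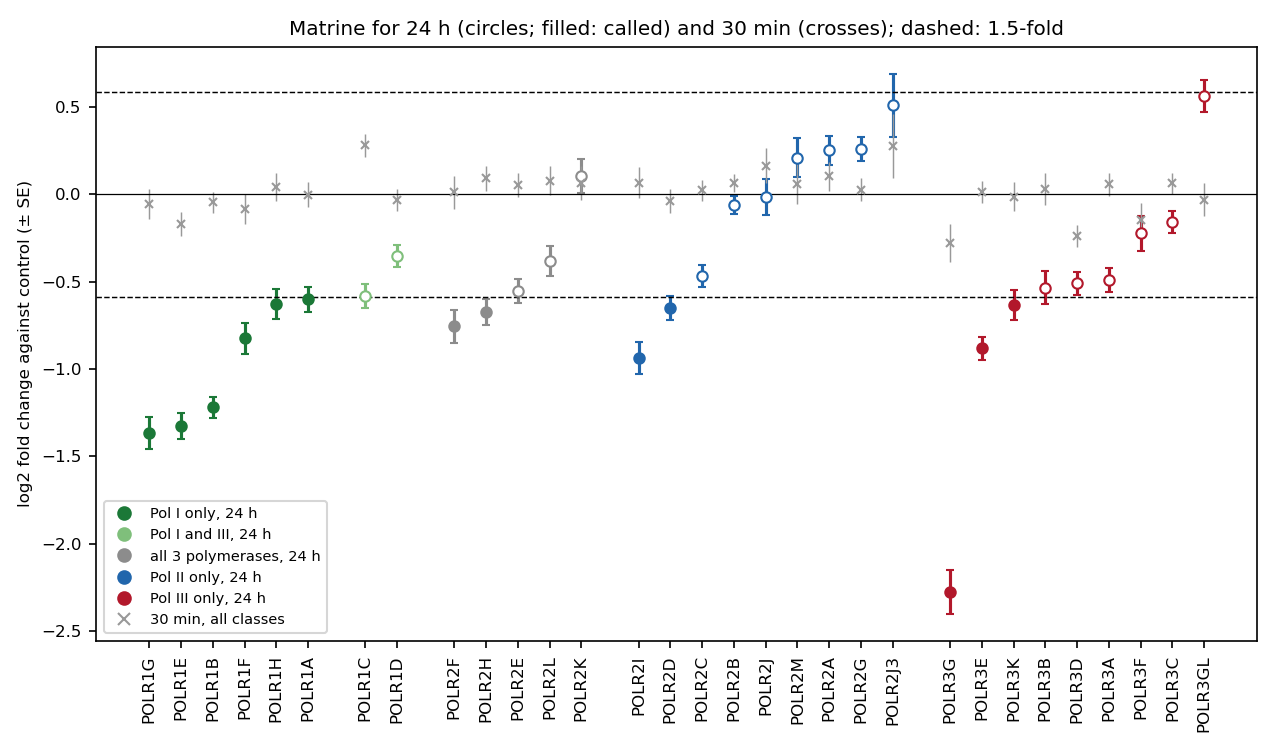
Log2 fold change against control (vertical axis, ± SE) of 31 subunit genes, ordered by the polymerase that uses them, at 24 h of matrine (circles, filled where called) and at 30 min (grey crosses). All 6 genes of Pol I alone lie below the lower dashed 1.5-fold line at 24 h, POLR3G lies lowest at -2.28, and no 30 min value passes either line.

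The catalytic core of Pol I is formed by POLR1A, the largest subunit, and POLR1B, the second largest. POLR1A (chromosome 2) had 13.9, 12.97 and 15.5 FPKM in the control, 12.6, 13.7 and 15.7 FPKM at 30 min and 9.79, 9.68 and 9.36 FPKM at 24 h. The log2 fold change at 24 h was -0.60 (SE 0.072, adjusted p = 3.1e-07), and it was -0.54 without control replicate 3, below the size needed for a call. POLR1B (chromosome 2, from 112541915 to 112579818) had 22.9, 21.4 and 23.7 FPKM in the control, 21.8, 21.4 and 22.2 FPKM at 30 min and 9.71, 9.9 and 10.6 FPKM at 24 h. All 3 libraries of 24 h were below all 6 others, and the log2 fold change was -1.22 (SE 0.061, adjusted p = 5.8e-13). Both core genes of Pol I were lower, and the estimate for POLR1B was the larger.

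POLR1E and POLR1G code for a pair of Pol I subunits that bind each other and resemble the Pol II factor TFIIF. Their mRNAs had the largest falls within Pol I. POLR1E (chromosome 9, from 37485948 to 37503697) had 22.3, 23.1 and 24.7 FPKM in the control, 21.1, 19.5 and 21.1 FPKM at 30 min and 9.59, 9.32 and 9.98 FPKM at 24 h. The log2 fold change of POLR1E at 24 h was -1.32 (SE 0.075, adjusted p = 3.9e-12). POLR1G (chromosome 19, from 45406644 to 45410737) had 9.06, 10.7 and 9.81 FPKM in the control, 8.81, 10.2 and 9.18 FPKM at 30 min and 3.67, 4.2 and 3.99 FPKM at 24 h. The log2 fold change of POLR1G was -1.37 (SE 0.094, adjusted p = 8.0e-11), so the pair moved by nearly the same amount. POLR1G overlaps the oppositely oriented gene ERCC1, at a mean of 14.03 FPKM, and the strand setting of the counting is not given in the sources used here.

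The other genes of Pol I alone are POLR1F, which codes for a stalk subunit at the exit of the transcript, and POLR1H, which codes for a small zinc-ribbon subunit needed to cleave the transcript. POLR1F had 23.9, 21.2 and 23.3 FPKM in the control, 20.6, 25.1 and 18.2 FPKM at 30 min and 13.2, 12.9 and 13.9 FPKM at 24 h. Its 30 min libraries were the most spread of the Pol I genes, while the 24 h libraries lay together below them, with a log2 fold change of -0.82 (SE 0.087, adjusted p = 4.9e-08). POLR1H had 13.1, 13.7 and 12.8 FPKM in the control, 13.6, 13.04 and 13.8 FPKM at 30 min and 7.94, 8.56 and 9.98 FPKM at 24 h. The log2 fold change of POLR1H was -0.63 (SE 0.084, adjusted p = 1.4e-06), and without 24 h replicate 1 it was -0.55, below the size needed for a call. Summed over these 6 genes, the level was 103 to 110 FPKM in the control libraries, 98.4 to 103 FPKM at 30 min and 53.9 to 57.8 FPKM at 24 h. Each 30 min sum lay below each control sum, but the nearest were only just apart, at 102.93 and 102.96 FPKM. The sums of the 24 h libraries lay far below both groups.

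**Figure D2:**
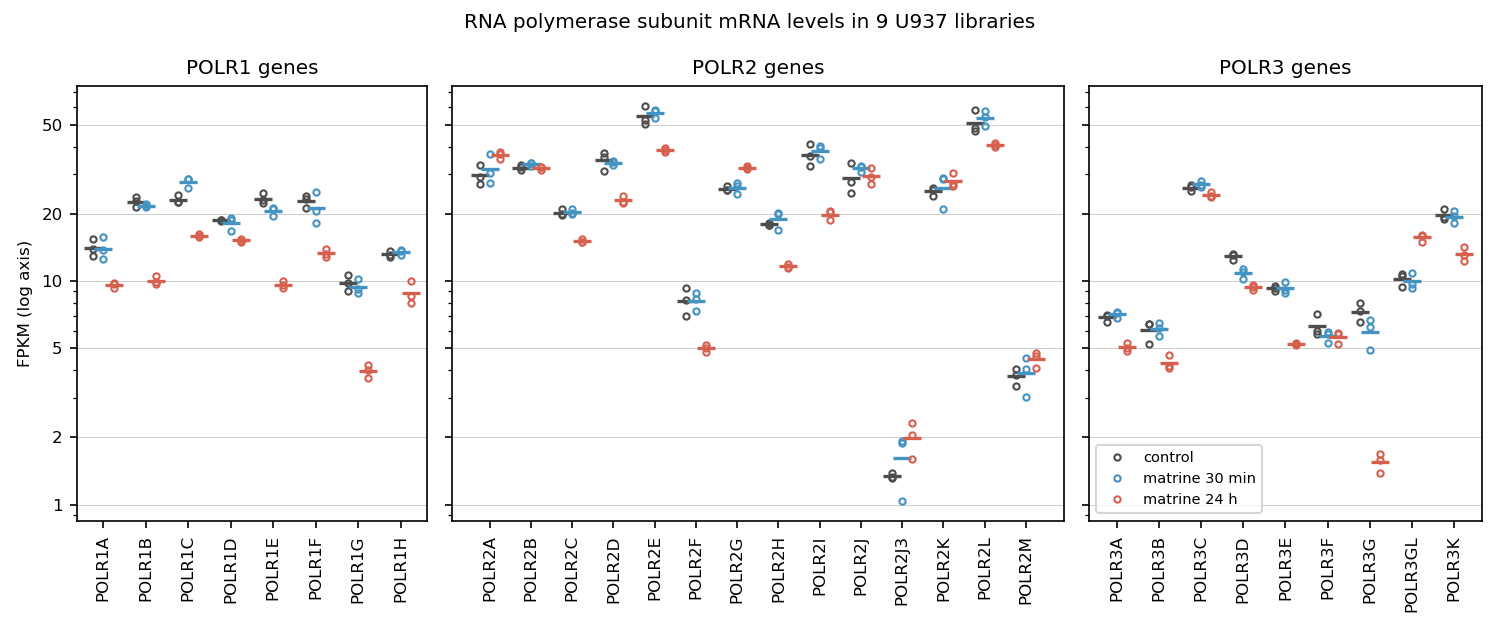
FPKM of 31 subunit genes (vertical axis, log scale) in the 9 U937 libraries, by symbol prefix. Open circles are libraries (control dark grey, 30 min blue, 24 h red) and short bars are group means of 3 libraries; the 24 h circles of POLR1B, POLR1E, POLR1G and POLR3G lie far below the others, while those of POLR2B overlap the controls.

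POLR1C and POLR1D code for an assembly pair that Pol I and Pol III share. POLR1C had 22.7, 24.2 and 22.5 FPKM in the control, 28.8, 26.2 and 28.6 FPKM at 30 min and 15.9, 15.8 and 16.2 FPKM at 24 h. It was thus highest at 30 min and lowest at 24 h, with no overlap between the groups. Its log2 fold change at 24 h was -0.58 (SE 0.069, adjusted p = 2.3e-07), just under the 1.5-fold limit, and it was called without control replicate 1 (-0.61), control replicate 3 (-0.61) or 24 h replicate 3 (-0.61). POLR1C overlaps XPO5 and YIPF3 on the opposite strand, at means of 24.4 FPKM and 21.7 FPKM. POLR1D moved less, from 18.8 ± 0.11 FPKM (SD, n = 3) to 15.2 ± 0.22 FPKM (SD, n = 3), with a log2 fold change of -0.35 (SE 0.065, adjusted p = 7.2e-05).

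The subunits common to all the polymerases did not move alike. POLR2F and POLR2H were called lower, POLR2E and POLR2L passed the test below the 1.5-fold limit, and POLR2K did not pass it. POLR2F had 8.19, 9.31 and 6.99 FPKM in the control, 8.86, 7.34 and 8.31 FPKM at 30 min and 4.82, 5.19 and 5.02 FPKM at 24 h, with a log2 fold change of -0.76 (SE 0.097, adjusted p = 7.5e-07) at 24 h. POLR2H had 17.9, 18.3 and 17.8 FPKM in the control, 19.9, 16.9 and 20.2 FPKM at 30 min and 11.5, 11.96 and 11.5 FPKM at 24 h, with a log2 fold change of -0.67 (SE 0.077, adjusted p = 1.5e-07). Both were lower in each 24 h library than in any control library. POLR2E, the most abundant member, had 50.5, 60.9 and 52.8 FPKM in the control, 57.4, 53.6 and 58.1 FPKM at 30 min and 38.7, 37.8 and 39.2 FPKM at 24 h. Its log2 fold change was -0.55 (SE 0.069, adjusted p = 4.9e-07), and it was called without control replicate 1 (-0.62) or control replicate 3 (-0.59). POLR2E overlaps ARHGAP45 on the opposite strand, at a mean of 65.9 FPKM. POLR2L, which overlaps CD151 on the opposite strand at a mean of 32.5 FPKM, had a log2 fold change of -0.38 (SE 0.086, adjusted p = 0.00061), and POLR2K one of 0.11 (SE 0.097, adjusted p = 0.36). POLR2K went from 25.3 ± 1.0 FPKM to 28.1 ± 2.1 FPKM (SD, n = 3 each), and its value was above 0 in each of the 20 alternatives tried.

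Among the 9 genes of Pol II alone, 2 were called lower and those of the catalytic core were not. Their median log2 fold change was -0.01, compared with -1.02 for the 6 genes of Pol I alone and -0.52 for the 10 of Pol III alone. POLR2A, the largest subunit, whose long tail is phosphorylated during transcription, had 29.1, 27.2 and 33.1 FPKM in the control, 27.6, 30.4 and 37.2 FPKM at 30 min and 36.9, 37.8 and 35.2 FPKM at 24 h. All 3 libraries of 24 h were above the controls, and the log2 fold change was 0.25 (SE 0.082, adjusted p = 0.011), a rise below the 1.5-fold limit. POLR2B, the second largest subunit, had 33.01, 31.3 and 32.3 FPKM in the control, 33.8, 33.9 and 32.6 FPKM at 30 min and 32.2, 32.2 and 31.3 FPKM at 24 h. The 24 h and control libraries of POLR2B overlapped, with a log2 fold change of -0.06 (SE 0.052, adjusted p = 0.34). All 3 libraries of 24 h lay below those of 30 min, with a log2 difference of -0.15 (SE 0.052, adjusted p = 0.018 with edgeR). POLR2B overlaps IGFBP7 on the opposite strand, at a mean of 26.8 FPKM.

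The genes of Pol II called lower were POLR2D and POLR2I. POLR2D codes for one partner of the Pol II stalk, and had 36.1, 31.1 and 37.6 FPKM in the control, 34.3, 32.97 and 33.98 FPKM at 30 min and 22.6, 22.3 and 24.01 FPKM at 24 h. The log2 fold change of POLR2D was -0.65 (SE 0.070, adjusted p = 6.4e-08). The other stalk partner, POLR2G, had 25.5, 25.7 and 26.7 FPKM in the control and 31.99, 32.8 and 31.6 FPKM at 24 h, and a log2 fold change of 0.26 (SE 0.068, adjusted p = 0.0021). The partners of 1 stalk therefore moved in opposite directions, POLR2D beyond the 1.5-fold limit and POLR2G within it. The ratio of POLR2D to POLR2G, chosen after their values were seen and given as a description, was 1.35 ± 0.12 (SD, n = 3) in the control and 0.715 ± 0.040 (SD, n = 3) at 24 h. POLR2I, the zinc-ribbon subunit of Pol II, had 32.7, 41.02 and 36.5 FPKM in the control, 39.3, 35.05 and 40.2 FPKM at 30 min and 20.3, 18.7 and 20.6 FPKM at 24 h. Its log2 fold change was -0.93 (SE 0.092, adjusted p = 1.7e-08), the largest fall within Pol II. POLR2I overlaps TBCB on the opposite strand, at a mean of 24.3 FPKM.

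The remaining genes of Pol II alone were not called. POLR2C, which pairs with POLR2J during assembly, fell from 20.2 ± 0.68 FPKM to 15.1 ± 0.31 FPKM (SD, n = 3 each), with a log2 fold change of -0.47 (SE 0.063, adjusted p = 1.6e-06). POLR2J had a log2 fold change of -0.01 (SE 0.10, adjusted p = 0.92), which was above 0 in 6 of the 20 alternatives, up to 0.11 without control replicate 2. POLR2M, which codes for a protein that associates with part of the Pol II pool, had one of 0.21 (SE 0.11, adjusted p = 0.10). POLR2J3, a copy of POLR2J, had one of 0.51 (SE 0.18, adjusted p = 0.018), and it was called higher without 24 h replicate 3, at 0.63. The counts of POLR2J3 are uncertain, because 91.3% of the 150-base words of its transcript also occur in transcripts of other genes; for POLR2J this share was 14.7% and for POLR2M 25.3%.

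Pol III has more subunits of its own than the other polymerases, and 4 of the 10 genes were called lower. The mRNAs of the catalytic core fell together but less than 1.5-fold. POLR3A, the largest subunit, had 7.08, 6.56 and 6.98 FPKM in the control, 6.81, 7.27 and 7.21 FPKM at 30 min and 5.28, 5.04 and 4.86 FPKM at 24 h, with a log2 fold change of -0.49 (SE 0.067, adjusted p = 1.9e-06). POLR3B, the second largest, had 6.43, 5.21 and 6.44 FPKM in the control, 5.66, 6.47 and 6.2 FPKM at 30 min and 4.15, 4.67 and 4.1 FPKM at 24 h, with a log2 fold change of -0.53 (SE 0.093, adjusted p = 4.3e-05). In both genes each 24 h library was below each control library, and POLR3B was called without control replicate 2 (-0.64) or 24 h replicate 2 (-0.59).

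POLR3D and POLR3E form the TFIIF-like pair of Pol III. POLR3E had 9.03, 9.49 and 9.36 FPKM in the control, 9.15, 8.83 and 9.95 FPKM at 30 min and 5.16, 5.26 and 5.24 FPKM at 24 h, with a log2 fold change of -0.88 (SE 0.066, adjusted p = 2.9e-10). Its partner POLR3D had 13.1, 12.5 and 13.2 FPKM in the control, 10.2, 11.03 and 11.3 FPKM at 30 min and 9.16, 9.42 and 9.58 FPKM at 24 h. POLR3D was thus below the control libraries at both times, but its log2 fold change at 24 h, -0.51 (SE 0.064, adjusted p = 6.8e-07), was not a call. POLR3K, the zinc-ribbon subunit, had 19.4, 20.9 and 18.99 FPKM in the control, 20.6, 19.5 and 18.2 FPKM at 30 min and 12.3, 14.2 and 13.1 FPKM at 24 h. Its log2 fold change was -0.63 (SE 0.085, adjusted p = 1.4e-06) with all libraries and -0.58 without 24 h replicate 1, which was not a call.

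A further subcomplex of Pol III opens the promoter and resembles the Pol II factor TFIIE. It holds POLR3C, POLR3F and one of a pair of alternative subunits coded by POLR3G and POLR3GL. POLR3G is known as the form of stem cells and tumour cells, and POLR3GL as the form of most differentiated tissues. POLR3G (chromosome 5, from 90471748 to 90514557) had 7.99, 6.53 and 7.33 FPKM in the control, 6.22, 6.68 and 4.93 FPKM at 30 min and 1.39, 1.58 and 1.69 FPKM at 24 h. Its log2 fold change at 24 h was -2.28 (SE 0.12, adjusted p = 2.1e-12), the largest fall among the members and rank 14 from the lowest among the 12035 genes tested. POLR3GL (chromosome 1, from 145964690 to 145978848) had 10.8, 10.6 and 9.39 FPKM in the control, 9.74, 10.9 and 9.28 FPKM at 30 min and 15.96, 14.96 and 16.1 FPKM at 24 h. All 24 h libraries of POLR3GL were above the others, with a log2 fold change of 0.56 (SE 0.091, adjusted p = 1.5e-05), and it was called higher without control replicate 1 (0.59) or 24 h replicate 2 (0.60). It was also called higher when scaled by library totals alone, at 0.61. POLR3G overlaps MBLAC2 on the opposite strand, at a mean of 3.11 FPKM.

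The mRNAs of the alternative forms moved in opposite directions at 24 h. The ratio of POLR3G to POLR3GL, in FPKM, was 0.743, 0.618 and 0.781 in the control, 0.639, 0.615 and 0.531 at 30 min, and 0.0871, 0.106 and 0.105 at 24 h. The log2 ratio differed from the control by -2.85 at 24 h, and the exact two-sided permutation p was 0.1, the smallest that 3 libraries against 3 allow. At 30 min the difference was -0.26 with overlapping groups and an exact permutation p = 0.2. Exact tests of 8 ratios at both times were computed, 16 in all, and the adjusted exact permutation p was 0.178 at 24 h and 0.291 at 30 min. The partners of the subcomplex were close to the control: POLR3C had a log2 fold change of -0.16 (SE 0.063, adjusted p = 0.036) at 24 h and POLR3F one of -0.22 (SE 0.10, adjusted p = 0.059). POLR3C went from 26.2 ± 0.79 FPKM to 24.3 ± 0.72 FPKM and POLR3F from 6.31 ± 0.73 FPKM to 5.61 ± 0.34 FPKM (SD, n = 3 each).

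**Figure D3:**
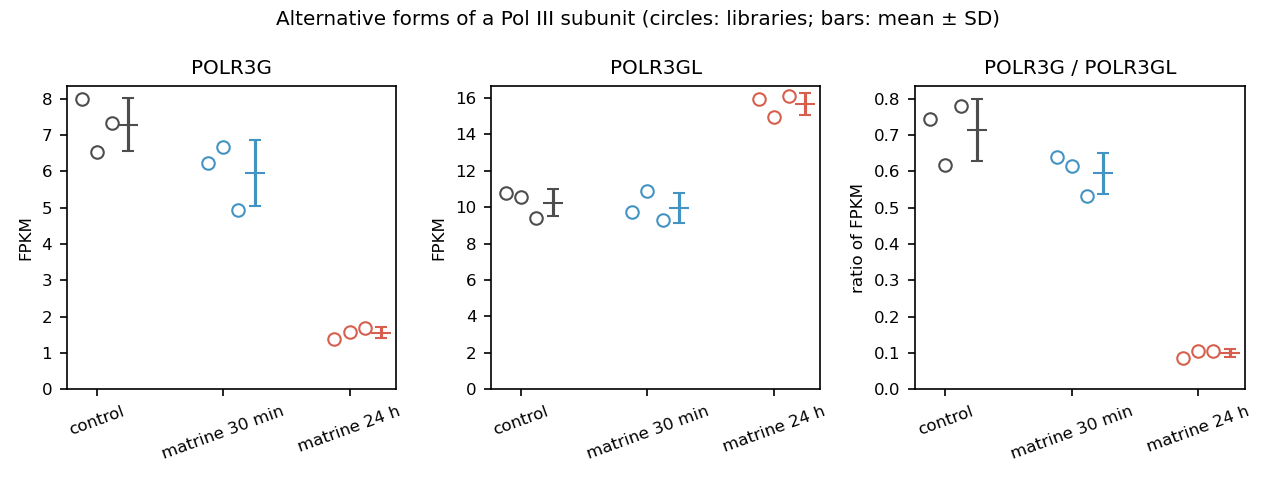
FPKM of POLR3G (left) and POLR3GL (middle) and their ratio (right) in control, 30 min and 24 h libraries; circles are libraries, and bars are means ± SD of 3 libraries on axes that start at 0. POLR3G falls to between 1.39 and 1.69 FPKM at 24 h while POLR3GL rises to between 14.96 and 16.1 FPKM, and the ratio ends near 0.1.

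The subunits were also set side by side by position in the enzyme. At the largest subunit the log2 fold changes were -0.60 ± 0.072 (SE) for Pol I, 0.25 ± 0.082 (SE) for Pol II and -0.49 ± 0.067 (SE) for Pol III. At the second largest they were -1.22 ± 0.061, -0.06 ± 0.052 and -0.53 ± 0.093 (SE) in the same order. The mRNAs of the catalytic cores of Pol I and Pol III were thus lower and those of the Pol II core were not. The ratio of POLR1A to POLR2A was 0.474 ± 0.0058 in the control, 0.442 ± 0.019 at 30 min and 0.262 ± 0.0056 at 24 h (SD, n = 3 each). The ratio of POLR1B to POLR2B was 0.704 ± 0.027, 0.652 ± 0.025 and 0.315 ± 0.020 (SD, n = 3 each). In both ratios each 30 min library also lay below each control library. These ratios were chosen after the values were seen and are given as a description.

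At the zinc-ribbon position, in contrast, the genes of all the enzymes were called lower. They were at -0.63 ± 0.084 for POLR1H, -0.93 ± 0.092 for POLR2I and -0.63 ± 0.085 for POLR3K (log2, SE). POLR1H and POLR3K were near the limit: their calls held in 14 and 15 of 20 alternatives, and neither held without 24 h replicate 1. The stalk subunits POLR1F of Pol I and POLR2D of Pol II were also called lower, at -0.82 and -0.65, and POLR2G of Pol II was not. At the assembly pair none was called: POLR1C and POLR1D were at -0.58 and -0.35, and POLR2C and POLR2J at -0.47 and -0.01. For the TFIIF-like pair, Pol II uses the separate factor TFIIF, whose subunit genes GTF2F1 and GTF2F2 were lower too, at -0.59 and -0.79. GTF2F1 was near the limit, and was not called without control replicate 3 (-0.58), 24 h replicate 1 (-0.58) or 24 h replicate 2 (-0.57).

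**Figure D4:**
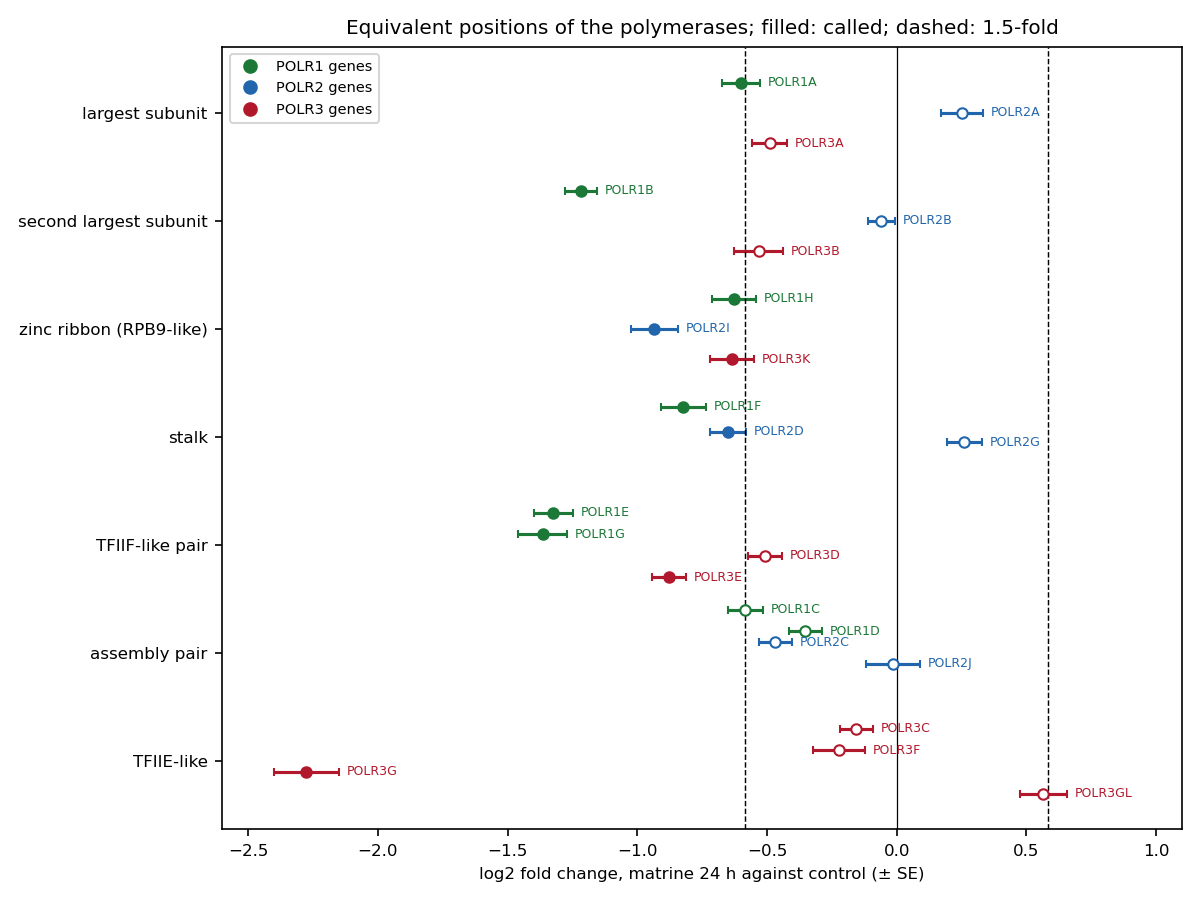
Log2 fold change at 24 h against control (horizontal axis, ± SE) of subunits that take equivalent positions in Pol I (green), Pol II (blue) and Pol III (red); filled circles are called genes and dashed lines mark 1.5-fold. At the core positions POLR2A and POLR2B lie near 0 to the right of their counterparts, while at the zinc-ribbon position all the genes lie left of the lower line.

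After 30 min of matrine the subunit mRNAs were close to the control. With edgeR, 0 of the 32 members were called lower and 0 higher, against 0.544% and 0.0949% of 11587 genes tested, and DESeq2 also called 0. At an unadjusted p below 0.05, 3 members were lower and 1 was higher, against 7.29% and 3.79% of all genes tested. The log2 fold changes ran from -0.28 for POLR3G to 0.28 for POLR1C, with a median of 0.03. In 29 members the 30 min and control libraries overlapped, 2 lay wholly below the controls and 1 wholly above, against 8.91% and 4.89% of all genes. POLR1C was the one member past the adjusted p alone, at 0.28 (SE 0.065, adjusted p = 0.029) with edgeR, where 0.293% of all genes were higher and 1.33% lower, and each 30 min library was above each control library. POLR1E and POLR3D had all 30 min libraries below the controls, at -0.17 (SE 0.070, adjusted p = 0.33) for POLR1E and -0.24 (SE 0.064, adjusted p = 0.065) for POLR3D, neither past the test. POLR3G was at -0.28 (SE 0.11, adjusted p = 0.28). In the same libraries the mRNA of MYC, which the study follows as the target of matrine, was already at -1.93 at 30 min and was at -2.29 at 24 h.

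Most subunit genes that were lower at 24 h were thus near the control at 30 min, and the times were also compared directly. At 24 h against 30 min, 17 of 32 members were called lower and 0 higher, against 11.5% and 15.4% of 11981 genes tested. They were 7 of 8 POLR1, 5 of 14 POLR2 and 5 of 10 POLR3 genes, and the median of the members was -0.60, compared with 0.01 over all genes. Every 24 h library lay below every 30 min library for 24 members and above for 2, against 28.6% and 39.9% of all genes. On the adjusted p alone, 24 were lower and 2 higher, against 32.6% and 32.5%. POLR1C, POLR2E and POLR3B were called in this comparison and not at 24 h against control. POLR1C had a log2 fold change of -0.88 (SE 0.068, adjusted p = 4.2e-10) between the times, POLR2E one of -0.63 (SE 0.068, adjusted p = 7.5e-08) and POLR3B one of -0.59 (SE 0.093, adjusted p = 1.2e-05). POLR3B was at the limit of 1.5-fold: without 30 min replicate 2 it was -0.55, without 30 min replicate 3 it was -0.58, without 24 h replicate 1 it was -0.55 and without 24 h replicate 3 it was -0.54. POLR1A was not called without 30 min replicate 3 (-0.54), and POLR3K was not called without 24 h replicate 1 (-0.58).

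The partner factors of the polymerases were read from lists of genes. Of 12 tested genes of Pol I initiation and regulation, 5 were called lower and 0 higher at 24 h, with a median log2 fold change of -0.48. DDX21, a nucleolar RNA helicase, went from a mean of 122 to 43.2 FPKM, log2 fold change -1.54. TCOF1, which codes for the nucleolar protein treacle, was at -1.32, MYBBP1A at -1.22, the nucleolar phosphoprotein gene NOLC1 at -1.15 and TAF1A, a subunit of the Pol I promoter factor, at -0.98. The other genes of this list were not called. TAF1D was at -0.52, TAF1B at -0.45, TTF1 at -0.37 and RRN3 at -0.36, while UBTF at -0.05 and TAF1C at -0.01 were near the control. BAZ2A went the other way, at 0.36. Of 40 genes for Pol II general transcription factors and regulators of its tail, 4 were lower and 0 higher, with a median of -0.29. The 4 called lower were a share near the 11.2% of all genes tested. Besides the TFIIF genes these were CCNH, the cyclin of TFIIH, at -0.67 and GTF2H2, another TFIIH subunit, at -0.91, a gene with near-identical copies whose counts are uncertain.

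Of 19 genes of Pol III initiation and regulation, 7 were lower and 0 higher, with a median of -0.22. GTF3C4, a subunit of the promoter factor TFIIIC, went from a mean of 13.4 to 6.24 FPKM, log2 fold change -1.15. SNAPC1, a subunit of the complex that binds small nuclear RNA genes, was at -0.97, and SSB, which binds the ends of new Pol III transcripts, at -0.86. GTF3A, the factor for the ribosomal RNA made by Pol III, was at -0.82 and BDP1, a subunit of TFIIIB, at -0.76. SNAPC1 was the only gene of the 5 lists called at 30 min, with a log2 fold change of -0.78 (SE 0.14, adjusted p = 0.0037), and its mean was 3.56 FPKM in the control, 2.06 FPKM at 30 min and 1.88 FPKM at 24 h.

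Of 13 genes for polymerase assembly and import, 3 were lower and 0 higher, with a median of -0.34. They were RUVBL1 at -1.52 and RUVBL2 at -0.98, the paired ATPases of a chaperone complex that assembles polymerases, and the prefoldin gene PFDN2 at -0.69. Most mRNAs for transcription in mitochondria, which have a separate enzyme, were lower too. Of 7 genes of mitochondrial transcription, 5 were called lower and 0 higher, with a median of -0.82. The polymerase gene POLRMT was at -0.82, and the factor genes TFB2M, TFB1M and TFAM were at -1.07, -1.01 and -0.82. MTERF3 was at -0.61, and was not called without control replicate 1 (-0.57) or 24 h replicate 2 (-0.58). The calls in the lists are by the same edgeR test as for the subunits, and the shares of all genes called are those given for 24 h.

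**Figure D5:**
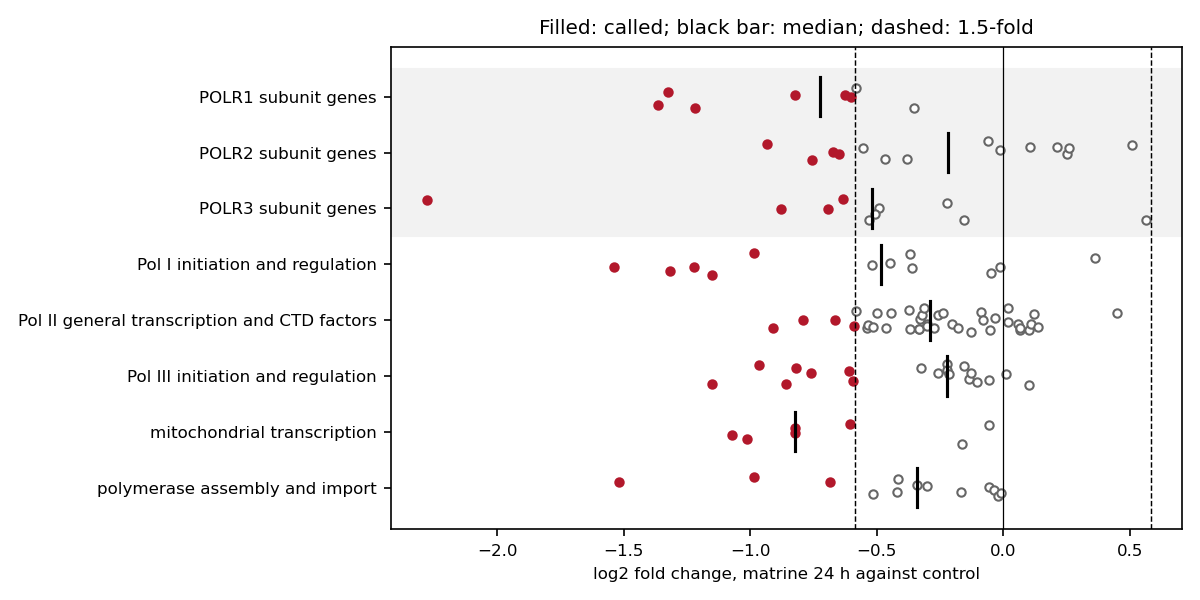
Log2 fold change at 24 h against control (horizontal axis) of the subunit genes (shaded, by symbol prefix) and of 5 lists of partner factors; each circle is a gene, red where called, black bars are medians and dashed lines mark 1.5-fold, and the vertical spread within a row carries no value. The median lies furthest left for mitochondrial transcription (-0.82) and POLR1 (-0.73), and all called genes lie on the left.

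Promoter sequences were read to see what the members share besides their function. Of the 32 members, 23 had a start site in the RefSeq promoters of GRCh38.p14, each 300 bases long with 250 before the start and 50 after it. Among those without one were POLR1E, POLR2I and POLR3G, which had some of the largest falls, and POLR2G, POLR2J, POLR2J3, POLR2K and POLR3D. Both motifs were chosen after the values were seen. CACGTG, an E-box to which c-Myc and related factors bind and which reads the same on both strands, was in 4 of the 23 genes, against 8.77% of 27305 genes. It was in 2 of 10 members called lower at 24 h, POLR1G and POLR3E, and in 2 of 13 not called, POLR3A and POLR3C. These 4 sites are shown because the study follows c-Myc, with the E-box in capitals in 30 bases of the gene's strand.
POLR1G (chr19:45406620-45406649, plus strand): cccctttggatcCACGTGgtctgcaacctg
POLR3E (chr16:22297396-22297425, plus strand): cccgctccccccCACGTGtccgccggagtt
POLR3A (chr10:78029533-78029562, minus strand): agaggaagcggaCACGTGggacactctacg
POLR3C (chr1:145823992-145824021, plus strand): gcccgcgtcggtCACGTGagttggccaggc

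The E-box began 12 bases before the start in POLR1G, 1 base before it in POLR3E, 35 bases before it in POLR3A and 196 bases before it in POLR3C. The log2 fold changes of these genes at 24 h were -1.37, -0.88, -0.49 and -0.16 in the same order. POLR1B, at -1.22, had no E-box in its windows. A link between the motif or its position and the size of the change was not tested. The motif CCGGAAG, bound by factors of the ETS family and searched on both strands, was in 8 of the 23, 3 of 10 called and 5 of 13 not called, against 12.2% of all genes. POLR1B, the core subunit of Pol I that moved most, had it before both of its RefSeq starts, shown with the motif in capitals as it reads on the strand of the gene.
POLR1B, first start (chr2:112541898-112541927, plus strand): caggcctccagtCCGGAAGatgcgacgagg
POLR1B, second start (chr2:112542411-112542440, plus strand): ctgcggccactaCTTCCGGcgtgtaccgag

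The POLR1G promoter is shown up to the start, since POLR1G had the largest fall within Pol I and its E-box lies next to the start. These are the 250 bases before the RefSeq start (chr19:45406394-45406643, plus strand), with the E-box in capitals.
POLR1G: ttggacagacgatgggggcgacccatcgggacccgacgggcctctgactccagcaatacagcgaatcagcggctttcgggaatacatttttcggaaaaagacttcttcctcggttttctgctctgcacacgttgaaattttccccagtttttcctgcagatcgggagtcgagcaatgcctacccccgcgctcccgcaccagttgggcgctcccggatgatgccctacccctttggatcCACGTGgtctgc

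The motif matches describe the letters of these windows only, and binding was not measured in these libraries.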

How the data were processed

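RNA-seq of U937 cells was analysed in 3 groups of 3 libraries: control, and matrine at 0.8 mg/ml collected after 30 min or 24 h. The HL-60 and K562 libraries were not analysed here. The authors counted reads per gene and deposited unnormalized counts and FPKM values of 57905 Ensembl genes in each library. Per the submitters' processing notes, cutadapt 1.9.1, HISAT2 2.0.1, HTSeq 0.6.1 and GRCh37 were used, whereas the paper's methods name hg38; the deposited table holds no coordinates. The strand setting is not given in the sources used here. Symbols were matched by gene ID to GENCODE 44 (51996 of 57905), whose GRCh38 positions are printed.

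Counts were tested with edgeR 4.0.16 (R 4.3.3), using TMM factors on the genes tested and full library totals. Each comparison had its own quasi-likelihood fit of all 9 libraries, over the genes it tested. A comparison took in genes whose FPKM averaged more than 1 in its 6 libraries. A call required an adjusted p (Benjamini-Hochberg, all genes tested) under 0.05 and at least a 1.5-fold change. SE was obtained by dividing the log2 fold change by the square root of F. Levels are the deposited FPKM. The procedure was also run on simulated data, with the same spread for every gene and calls at 1.2-fold or more. These settings differ from those of the data, so the run does not measure how reliable the calls are.

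The members, their roles and the lists of partner genes were chosen with earlier results of these data known. Values in every library are given for members called in any comparison, for the core subunits and for POLR3G and POLR3GL. The values of 1 member are not reported here, but it is kept in the counts and medians. At most 5 called genes per list are named, by the size of the change at 24 h. TAF9 was not matched to a gene of the table, and CAVIN1 and POLR1HASP did not pass the FPKM filter at 24 h. Words of 150 bases shared between GENCODE 44 transcripts marked near-identical copies, and promoters and their sequences are those of RefSeq. Alternatives with limma 3.58.1, DESeq2 1.42.0, other scalings, filters and thresholds, a replicate block and each library left out are given in the closing section.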

Additional observations from a re-analysis of the deposited data

Results flagged for a closer look

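Differences between the times were taken from the direct comparison of 24 h with 30 min, a test of the difference between both effects, since each is measured against the same controls. The 16 subunit genes below were called lower at 24 h than at 30 min, by adjusted p and a fold change of at least 1.5 (edgeR's quasi-likelihood test). By this rule 11.5% of all genes tested were called lower and 15.4% higher. On the adjusted p alone, 24 of the 32 members were lower and 2 higher, against 32.6% and 32.5% of all genes. The values are those of this comparison's own fit, and can differ slightly from a subtraction of the fold changes against control. Among POLR1 genes the log2 fold change at 24 h against 30 min was -0.62 for POLR1A, -1.19 for POLR1B, -0.88 for POLR1C, -1.17 for POLR1E, -0.76 for POLR1F, -1.33 for POLR1G and -0.69 for POLR1H. Among POLR2 genes it was -0.64 for POLR2D, -0.63 for POLR2E, -0.79 for POLR2F, -0.78 for POLR2H and -1.02 for POLR2I. Among POLR3 genes it was -0.59 for POLR3B, -0.91 for POLR3E, -2.02 for POLR3G and -0.64 for POLR3K. The members higher at 24 h on the adjusted p were below the 1.5-fold limit. With edgeR, POLR3GL was at 0.58 (SE 0.090, adjusted p = 1.1e-05) and POLR2G at 0.21 (SE 0.067, adjusted p = 0.0086). Groups of 3 libraries were too small to test whether a single library was outlying, and each library was left out in turn instead.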

How the results depend on the processing

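The count of members called at 24 h against control (14) was within 1.5 times under the other filters, scalings, DESeq2 and limma on log2(FPKM + 0.1), and the largest moves came from the fold change asked for. With no fold change threshold, 27 members were called at 24 h against control (4 of them higher), 26 at 24 h against 30 min (2 higher) and 1 at 30 min (higher). The shares of all genes were then 31.8% lower and 31.5% higher at 24 h, and 32.6% and 32.5% at 24 h against 30 min. At 30 min they were 1.33% lower and 0.293% higher. With 1.2-fold or more, 24 were called at 24 h (2 higher), and 1 higher at 30 min and 1 higher at 24 h against 30 min. At least 2-fold left 4 at 24 h and 5 at 24 h against 30 min. With limma on log2(FPKM + 1), 8 were called at 24 h and 11 at 24 h against 30 min. Shares of all genes are not given here for the other settings, so their counts are not read against them. One member was called higher in place of 0 at 24 h against control with a mean FPKM above 5, library totals alone or limma on log2(FPKM + 0.1), and at 24 h against 30 min under these and limma on log2(FPKM + 1).

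By polymerase, POLR1 lower calls at 24 h (6) were 8 with no threshold or at 1.2-fold, 7 with no filter, RLE size factors, TMM factors from all genes or DESeq2, 4 with a mean FPKM above 5, library totals alone and both limma settings, 3 at 2-fold, and 5 to 7 with each library left out. Against 30 min (7) they were 3 at 2-fold and 5 to 8 under the others. POLR2 lower calls at 24 h were 7 with no threshold or at 1.2-fold, 0 at 2-fold, 2 with limma on log2(FPKM + 1) and 2 with shared subunits counted apart. Against 30 min they were 8 with no threshold, 1 at 2-fold, 2 with shared subunits apart, and 3 with a mean FPKM above 5, library totals alone and both limma settings. POLR3 lower calls at 24 h were 8 with no threshold, 7 at 1.2-fold, 1 at 2-fold, 2 with a mean FPKM above 5, where POLR3G was not tested, and 2 with limma on log2(FPKM + 1). Against 30 min they were 8 with no threshold, 1 at 2-fold, 2 with a mean FPKM above 5, 3 with library totals alone, 3 with limma on log2(FPKM + 0.1) and 2 with limma on log2(FPKM + 1). Apart from the thresholds, the cause was not tested.

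Leaving out each library gave 12 to 17 members called at 24 h against control, 15 to 18 at 24 h against 30 min, and 0 to 1 higher in both. Of the 32 members, 31 kept their sign at 24 h in all alternatives. The exception was POLR2J, at 0.042 with a mean FPKM above 5, 0.035 with library totals alone, 0.042 and 0.041 with limma at 0.1 and 1, and between -0.12 and 0.11 over the libraries left out. TMM factors from all genes of the table, chosen after the data were seen, gave 17 members lower at 24 h. The log2 ratio of POLR3G to POLR3GL at 24 h lay between -2.95 and -2.75 over its alternatives.

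Libraries with the same replicate number did not deviate together (correlations -0.16 to 0.10, against -0.15 to 0.19 for different numbers). The labels do not say whether the numbers pair the libraries, and these correlations cannot settle it. A replicate block gave 14 members called at 24 h against control, 16 at 24 h against 30 min and 0 at 30 min. Genes with fold changes close to 1.5, such as POLR1A, POLR1C, POLR1H, POLR2E, POLR3B, POLR3GL and POLR3K, fell on either side of the limit depending on the library left out. With 3 libraries a group, an exact test of a single ratio cannot go below 0.1. Genes overlapping on the opposite strand share reads where counting ignored strand, which was not tested.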
